A study of Mus musculus with 16 samples.

Results

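The 10 genes described here encode the enzymes that make serine and that move its one-carbon unit through folate: Phgdh, Psat1, Psph, Shmt1, Shmt2, Mthfd1, Mthfd1l, Mthfd2, Aldh1l1 and Aldh1l2. They were chosen by name, as 10 of the 36047 genes with a matched transcript, and all 10 passed the filter on low counts. The study sequenced poly(A)-selected messenger RNA of mouse ESCs, embryonic stem cells, which are pluripotent cells derived from the early embryo. The cells were Dgcr8 knockout (with the genotype label DGCR8 KO, spelled DGRC8 KO in the sample titles, line KO24, here KO) or wild type (WT), and each genotype was grown with mTORi (paused, day 2) or in normal ESC culture (not paused). This gave KO paused, KO normal, WT paused and WT normal cells with 4 libraries each, 16 in all. Dgcr8 is the RNA-binding partner of Drosha in microRNA maturation, and mTOR is the kinase that couples growth to nutrients. The labels name neither the inhibitor nor the deleted stretch of Dgcr8, and they do not say whether KO24 is a single clone or whether replicates were separate cultures, so p-values measure the spread between libraries, which may be technical.

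Serine is made from the glycolytic intermediate phosphoglycerate in sequence by Phgdh, Psat1 and Psph. Serine hydroxymethyltransferases then pass a carbon unit of serine to tetrahydrofolate and leave glycine, and folate enzymes oxidize that unit to formate or use it for purines and thymidylate. The folate cycle runs in parallel in the cytosol (Shmt1, Mthfd1, Aldh1l1) and in mitochondria (Shmt2, Mthfd2, Mthfd1l, Aldh1l2). In many mammalian cells the serine and mitochondrial genes are targets of ATF4, a transcription factor of the amino acid and mitochondrial stress responses that is made more when mTOR is active.

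The promoters of Phgdh, Psat1 and Mthfd2 are shown because these 3 had the largest falls among well expressed members in WT paused cells, and that of Mthfd1 because it had the highest TPM of the 10 genes there. The letters are RefSeq sequence of GRCm38.p6, from 250 bases before to 50 bases after the annotated start, 5′ to 3′ on the strand of the gene, with each CCAAT or its reverse complement ATTGG in capitals.
Phgdh promoter (chr3:98339920-98340219, minus strand): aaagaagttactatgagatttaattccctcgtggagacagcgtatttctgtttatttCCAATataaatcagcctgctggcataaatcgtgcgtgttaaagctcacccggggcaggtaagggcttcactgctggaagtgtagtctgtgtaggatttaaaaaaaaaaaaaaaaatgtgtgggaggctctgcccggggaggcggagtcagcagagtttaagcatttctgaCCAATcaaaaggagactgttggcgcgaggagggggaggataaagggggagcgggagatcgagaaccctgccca
Psat1 promoter (chr19:15925010-15925309, minus strand): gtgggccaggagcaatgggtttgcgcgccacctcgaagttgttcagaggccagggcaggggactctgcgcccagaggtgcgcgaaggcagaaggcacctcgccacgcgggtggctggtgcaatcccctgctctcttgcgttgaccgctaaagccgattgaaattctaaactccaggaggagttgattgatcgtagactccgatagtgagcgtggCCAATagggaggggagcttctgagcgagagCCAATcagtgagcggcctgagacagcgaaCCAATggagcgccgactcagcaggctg
Mthfd2 promoter (chr6:83317555-83317854, minus strand): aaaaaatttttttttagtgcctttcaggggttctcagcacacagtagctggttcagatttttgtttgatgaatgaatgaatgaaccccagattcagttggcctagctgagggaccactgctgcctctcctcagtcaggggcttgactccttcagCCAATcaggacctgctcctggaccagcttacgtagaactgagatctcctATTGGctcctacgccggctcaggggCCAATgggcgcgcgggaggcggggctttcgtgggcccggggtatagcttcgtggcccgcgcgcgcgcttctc
Mthfd1 promoter (chr12:76254982-76255281, plus strand): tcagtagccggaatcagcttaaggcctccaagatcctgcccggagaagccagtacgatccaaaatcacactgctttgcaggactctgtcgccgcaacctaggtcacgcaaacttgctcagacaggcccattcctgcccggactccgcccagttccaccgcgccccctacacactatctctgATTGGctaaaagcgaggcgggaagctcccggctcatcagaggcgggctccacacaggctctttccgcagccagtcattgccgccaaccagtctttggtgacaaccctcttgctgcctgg
The table held 10 such promoters of 9 members (2 for Psat1), and Aldh1l2 is named only. A search on both strands for TGATGNAA, the core of the C/EBP-ATF response element that ATF4 dimers bind, and for the E-box CACGTG matched none of the 10 promoters, where 3.97% and 7.15% of all 32851 promoters of that length held a match. For comparison, 8 of 20 promoters of the other ATF4 targets listed below held TGATGNAA. CCAAT, a motif chosen after these letters were read, was in 7 of the 10 promoters, and 5 held it more than once, against 37.4% and 11.7% of all promoters. Psat1 held it 3 times, starting 36 and 6 bases before and 24 bases into the transcript, and Mthfd2 also 3 times, 96, 47 and 22 bases before its start. None of the matches overlapped. A match is a run of letters and not a bound site, and a window without a match says nothing about binding elsewhere.

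Library totals ran from 88377380 to 116646028 estimated counts. All 8 ESC markers were present in every group, with summed levels of 4837 to 5044 TPM in KO paused, 3550 to 3865 in KO normal, 4116 to 4249 in WT paused and 3186 to 3533 in WT normal cells. The 9 feeder fibroblast markers, mostly Thy1, summed to 22.2 to 24.5 TPM in KO paused, 28.4 to 31.7 in KO normal, 12.5 to 13.5 in WT paused and 11.3 to 14.2 in WT normal cells. Thy1 alone averaged 22.7, 29.5, 11.2 and 10.6 TPM in the same order of groups. Of the 5 markers tested, 1 was higher and 2 were lower in KO than WT paused cells (median log2 fold change -0.57). In normal culture 1 was higher and 3 were lower (median -0.43). Of all genes tested, 30.8% were higher and 34.5% lower in paused cells, and 34.1% each in normal culture. The 6 endoderm markers summed to 8.81 to 11.1, 5.98 to 7.50, 14.8 to 21.7 and 13 to 19.6 TPM in the same order of groups, and the 4 neuroectoderm markers to 5.20 to 6.26, 6.93 to 8.53, 13 to 14.6 and 12.4 to 14.3 TPM. These sums differ between the genotypes, no marker was at 0 in all libraries of a group, and their part in the genotype differences was not tested. Dgcr8 itself averaged 180.8 ± 7.35 CPM in KO paused and 250.3 ± 4.14 in KO normal cells, against 53.9 ± 2.43 in WT paused and 47.3 ± 1.81 in WT normal cells (SD, n = 4 each). The gene-level count of Dgcr8 is thus higher in the libraries labelled KO, and since the deleted stretch is not stated it does not check the label. Replicates 1 and 2 of WT normal cells stood apart from replicates 3 and 4: the median chi-square per gene between them was 9.02 to 12.46, against 2.03 to 2.42 for the other pairs of that group and 1.27 to 5.16 in the other groups. Many main values that rest on WT normal cells are given below with replicates 1 and 2 alone and with replicates 3 and 4 alone. Others, among them the WT pausing values of Shmt1, Mthfd1, Aldh1l1 and Aldh1l2 and most interactions, are given with 1 pair or neither. TPM levels, sums and ratios are given over all 4 libraries only. In bulk RNA, fewer cells of a type and less RNA per cell cannot be told apart, and CPM, a count scaled to library size with TMM factors, carries no total RNA per cell.

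Phgdh, the first and committed enzyme of serine synthesis, was high in KO cells and lowest in WT paused cells. It had 294, 371, 288 and 351 CPM in KO paused cells and 459, 497, 489 and 431 CPM in KO normal cells. WT paused cells had 48.9, 45.8, 46.6 and 48.1 CPM, and WT normal cells 196, 189, 129 and 134 CPM. No 2 groups overlapped, and even the lowest KO paused library stood above every WT library. Pausing lowered Phgdh by a log2 fold change of -0.52 ± 0.12 in KO cells and of -1.77 ± 0.13 in WT cells (± SE; adjusted p = 0.0018 and 1.6e-08; edgeR quasi-likelihood test, Benjamini-Hochberg). The fall in WT cells was -2.02 with replicates 1 and 2 alone and -1.48 with replicates 3 and 4 alone.

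Psat1, the aminotransferase of the middle step, followed the same order in WT cells with a wider range. It had 406, 491, 406 and 483 CPM in KO paused cells and 813, 879, 867 and 792 CPM in KO normal cells. WT paused cells had 85.7, 80.3, 84.1 and 84.2 CPM, and WT normal cells 539.8, 513, 332 and 317 CPM. WT paused libraries lay far under all others and close to one another, while the KO paused range fell inside the WT normal range. The log2 fold change on pausing was -0.91 ± 0.15 in KO cells and -2.35 ± 0.15 in WT cells (edgeR adjusted p = 6.5e-05 and 5.1e-09). In WT cells it was -2.66 from replicates 1 and 2 and -1.95 from replicates 3 and 4.

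Psph, the phosphatase that releases serine, fell in both genotypes. It averaged 76.8 ± 6.70 CPM in KO paused, 151.9 ± 5.83 in KO normal, 33.5 ± 0.948 in WT paused and 75.2 ± 6.38 in WT normal cells (SD, n = 4 each). KO paused and WT normal cells overlapped, at 70.9 to 83.1 against 69.7 to 82.5 CPM. The log2 fold change on pausing was -0.98 ± 0.06 in KO cells and -1.17 ± 0.06 in WT cells (edgeR adjusted p = 7.1e-11 and 1.3e-11). The difference of the 2 responses, 0.18 ± 0.09, did not pass the test (adjusted p = 0.092), with an unadjusted 95% interval of 0.02 to 0.35. It was called with upper-quartile factors (0.25, adjusted p = 0.026), with replicates 1 and 2 alone (0.28, adjusted p = 0.016) and without replicate 1 or 3 of KO paused or replicate 3 or 4 of WT normal cells (adjusted p of at most 0.046). In WT cells the fall of Psph was -1.29 with replicates 1 and 2 alone and -1.04 with replicates 3 and 4 alone. Psph shares 452 bases with Cct6a on the opposite strand, which was not among the genes counted. Since use of strand in counting is not stated, the counts of Psph are uncertain.

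Shmt2, the mitochondrial serine hydroxymethyltransferase, was the most abundant mitochondrial member in every group. It had 533, 632, 555 and 642 CPM in KO paused cells and 637, 700.0, 688 and 617 CPM in KO normal cells. WT paused cells had 191, 174, 182 and 179.6 CPM, and WT normal cells 329, 316, 277 and 279.5 CPM. The KO groups overlapped each other and both lay above all WT libraries. On pausing Shmt2 fell in WT cells, at -0.73 ± 0.07 (edgeR adjusted p = 3.4e-08), with -0.82 from replicates 1 and 2 and -0.63 from replicates 3 and 4. In KO cells the value was -0.16 ± 0.07 (adjusted p = 0.039), a call that was lost in 6 of 14 other settings (adjusted p up to 0.32) and when any 1 of 6 of the 16 libraries was left out (adjusted p up to 0.15). In TPM Shmt2 was at 513 ± 56.6 in KO paused against 469 ± 37.6 in KO normal cells (SD), the opposite order to CPM.

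Mthfd2, the mitochondrial dehydrogenase and cyclohydrolase of the pathway, had the largest fall of the 10 genes in WT cells. It had 63.7, 77.8, 65.2 and 79.1 CPM in KO paused cells and 122, 133, 136 and 125 CPM in KO normal cells. WT paused cells had 19.9, 19.0, 19.5 and 19.0 CPM, and WT normal cells 135, 139, 122 and 115 CPM. Both normal groups overlapped, and the WT paused libraries lay within 1 CPM of one another under all others. The log2 fold change on pausing was -0.85 ± 0.07 in KO cells and -2.72 ± 0.08 in WT cells, a fold of 0.554 against 0.152 (edgeR adjusted p = 8.8e-09 and 3.4e-14). In WT cells it was -2.82 from replicates 1 and 2 and -2.63 from replicates 3 and 4.

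Mthfd1l, the mitochondrial formate-producing synthetase, fell in both genotypes. It averaged 181 ± 8.46 CPM in KO paused, 238 ± 12.9 in KO normal, 91.1 ± 6.01 in WT paused and 141 ± 18 in WT normal cells (SD, n = 4 each). The log2 fold change on pausing was -0.39 ± 0.07 in KO cells and -0.63 ± 0.07 in WT cells (edgeR adjusted p = 0.00014 and 9.4e-07). In WT cells it was -0.87 from replicates 1 and 2, against -0.39 from replicates 3 and 4.

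Aldh1l2, the mitochondrial formyl-tetrahydrofolate dehydrogenase, was scarce in WT cells and responded in the opposite direction in KO cells. It had 37.7, 53.8, 36.7 and 51.7 CPM in KO paused cells and 23.3, 33.6, 28.3 and 23.5 CPM in KO normal cells. WT paused cells had 0.837, 0.89, 0.795 and 0.691 CPM, from 66 to 92 counts a library, and WT normal cells 3.93, 3.44, 1.83 and 1.75 CPM. The 4 groups did not overlap. Pausing raised it in KO cells by 0.73 ± 0.20 and lowered it in WT cells at -1.77 ± 0.30 (edgeR adjusted p = 0.0056 and 0.00011). With replicates 1 and 2 alone the KO value was 0.69 (adjusted p = 0.074), and with replicates 3 and 4 alone the WT value was -1.27 (adjusted p = 0.055). Over 14 other settings the WT value ran from -2.09 to -1.16. Of its 2 coding transcripts, that of 6027 bases averaged 7.81 TPM in KO paused, 3.98 in KO normal, 0.0602 in WT paused and 0.285 in WT normal cells. That of 3938 bases averaged 5.34, 3.14, 0.1 and 0.329 TPM in the same order of groups. In WT paused cells a non-coding transcript of 1383 bases held 47.1% to 65.4% of the TPM of the gene, against 7.98% to 12.8% in KO paused cells. Its mean level was nonetheless lower in WT paused cells, at 0.336 TPM against 1.71 TPM in KO paused cells. Aldh1l2 shares 1056 bases with D10Wsu102e on the opposite strand, and since use of strand in counting is not stated, its counts are uncertain. D10Wsu102e was lower in KO than WT cells, at -0.83 ± 0.08 in paused cells (adjusted p = 1.8e-07).

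The cytosolic enzymes changed by at most 0.51 on the log2 scale in either genotype. Shmt1, the cytosolic serine hydroxymethyltransferase, averaged 168 ± 8.96 CPM in KO paused, 237 ± 4.08 in KO normal, 185 ± 5.10 in WT paused and 214 ± 13.4 in WT normal cells (SD, n = 4 each). It fell on pausing, with values of -0.50 ± 0.04 in KO cells and -0.21 ± 0.04 in WT cells (edgeR adjusted p = 1.0e-08 and 0.0004). With length-scaled TPM counts the WT value was -0.03 (adjusted p = 0.56), and over all 14 other settings it ran from -0.27 to -0.03. The level of Shmt1 in TPM was 164 ± 4.84 in WT paused against 141 ± 7.85 in WT normal cells, the opposite order to CPM. The 4 retained-intron transcripts of Shmt1 together averaged 58.6 TPM in KO paused, 39.7 in KO normal, 59.5 in WT paused and 35.1 in WT normal cells. The coding transcript of 2858 bases averaged 75.2 TPM in KO paused, 97.3 in KO normal, 78.2 in WT paused and 80.9 in WT normal cells.

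Mthfd1, the trifunctional cytosolic enzyme that links formate, formyl- and methylene-tetrahydrofolate, averaged 468 ± 8.10 CPM in KO paused, 525 ± 7.85 in KO normal, 446 ± 11.8 in WT paused and 419 ± 22.8 in WT normal cells (SD, n = 4 each). It fell in KO cells, at -0.17 ± 0.04 (edgeR adjusted p = 0.00044), a call that held in every other setting. Its level in TPM was 250.1 ± 4.42 in KO paused against 239 ± 12.6 in KO normal cells (SD), the opposite order to CPM. In WT cells the TPM level of Mthfd1 was 227 ± 7.02 in paused against 180.4 ± 8.96 in normal culture, the same order as CPM. The rise in WT cells, 0.09 ± 0.04 (adjusted p = 0.034), came from groups that overlapped in CPM, lost its call in 6 of 14 other settings and without any 1 of 10 of the 16 libraries (adjusted p up to 0.26), and was -0.01 with replicates 3 and 4 alone. Over the 14 other settings the WT value ran from -0.01 to 0.19. Aldh1l1, the cytosolic formyl-tetrahydrofolate dehydrogenase and a marker of astrocytes in the brain, was the least abundant cytosolic member. It averaged 6.41 ± 0.386 CPM in KO paused, 4.49 ± 0.517 in KO normal, 4.17 ± 0.378 in WT paused and 3.43 ± 0.166 in WT normal cells (SD, n = 4 each). It rose on pausing by 0.51 ± 0.09 in KO cells and by 0.28 ± 0.09 in WT cells (adjusted p = 6.0e-05 and 0.013). In WT cells the call was lost without replicate 1 of WT paused cells (0.22, adjusted p = 0.06) and with replicates 3 and 4 alone (0.13). Over the 14 other settings the WT value of Aldh1l1 ran from 0.13 to 0.53. Aldh1l1 shares 332 bases with Gm15756 on the opposite strand. Unlike the neighbour of Aldh1l2, Gm15756 was not among the genes counted. Since use of strand in counting is not stated, the counts of Aldh1l1 are uncertain.

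**Figure D1:**
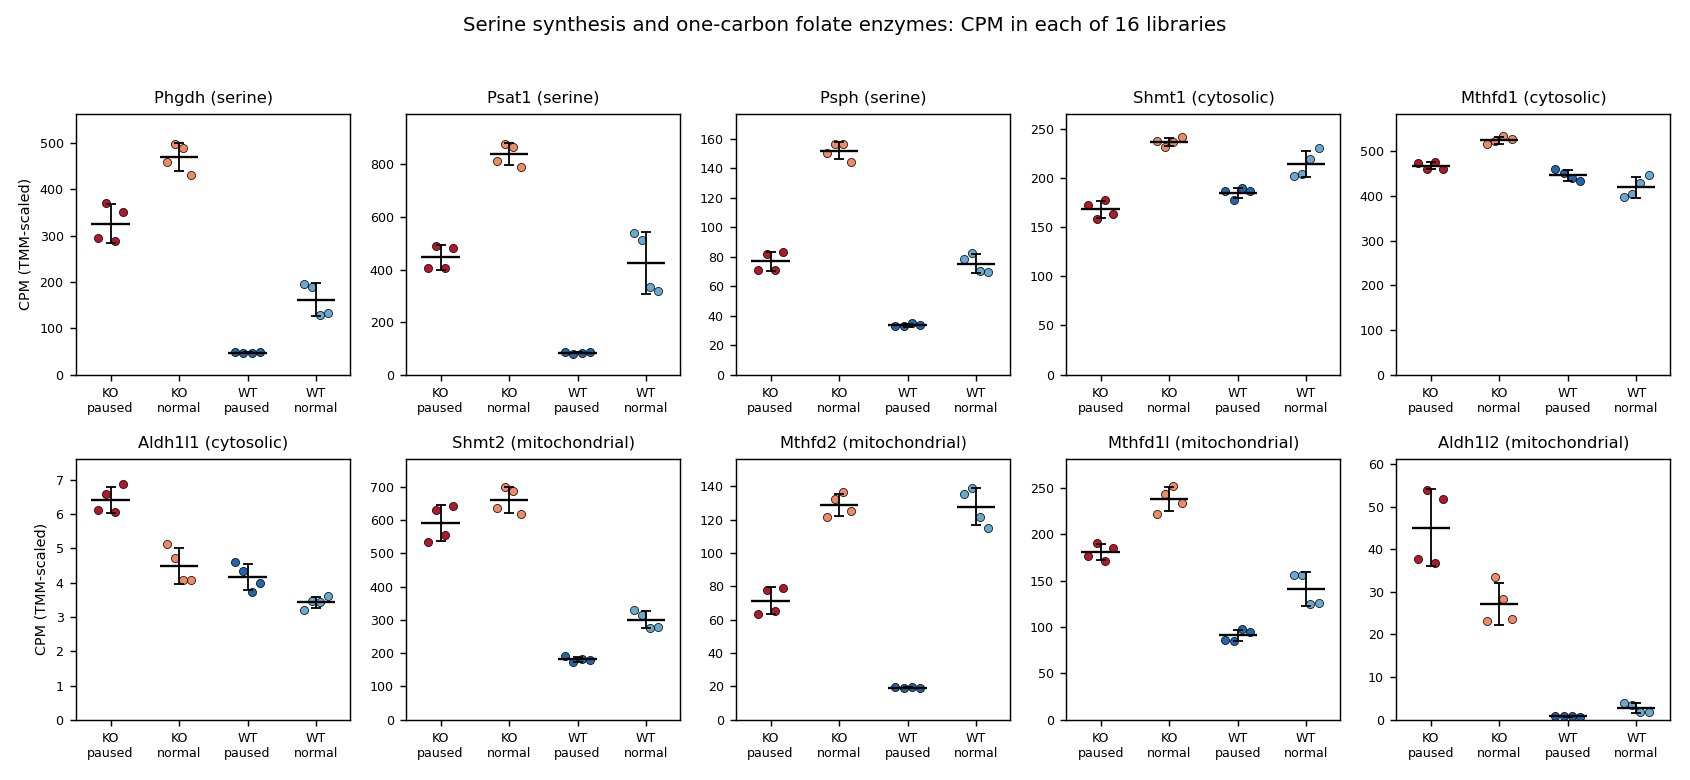
CPM (TMM-scaled, linear axis from 0) of each of the 10 genes in the 16 libraries, as points, with the mean and SD of 4 libraries per group as black bars. Phgdh, Psat1, Psph, Shmt2, Mthfd2 and Mthfd1l are lowest in WT paused cells, Aldh1l2 is above 23 CPM in every KO library and below 4 CPM in every WT library, and the group means of Shmt1 run from 168 to 237 CPM and those of Mthfd1 from 419 to 525 CPM.

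Counted over the 10 genes, pausing raised 2 (Aldh1l1, Aldh1l2) and lowered 8 in KO cells, where 34.4% of the 18965 genes tested were higher and 32.7% lower. In WT cells it raised 2 (Mthfd1, Aldh1l1) and lowered 8, where 33.2% of all genes were higher and 27.5% lower. The median log2 fold change of the 10 was -0.45 in KO cells and -0.95 in WT cells, beside 0.02 and 0.04 over all genes tested. The 2 rises in WT cells were the less stable ones described above, and 1 or none of them was called in 6 of 14 other settings.

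**Figure D2:**
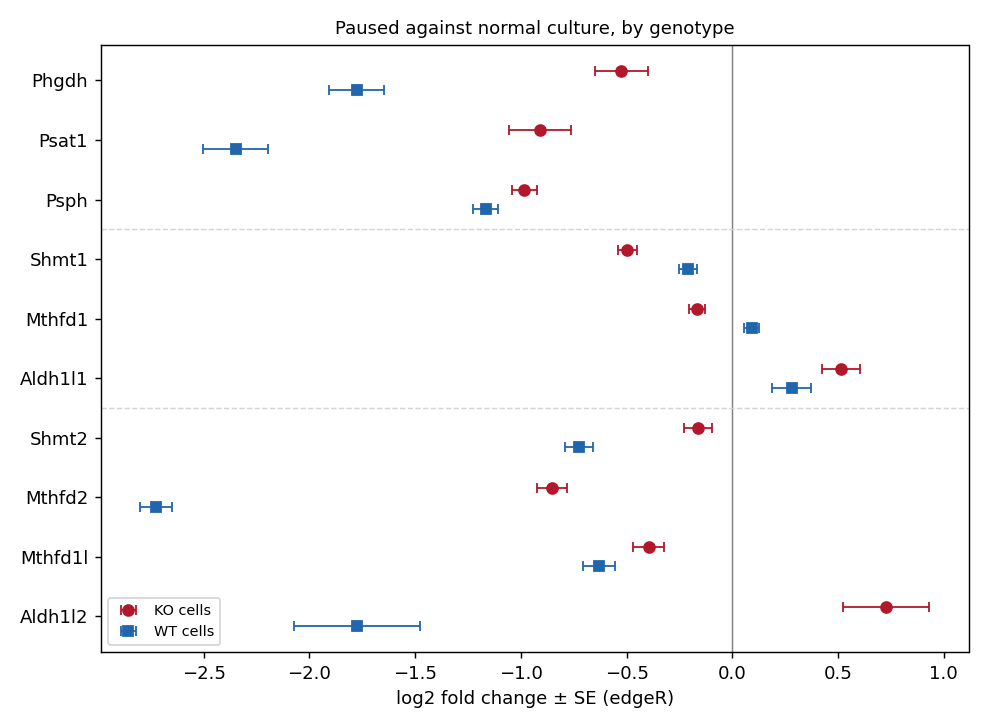
Log2 fold change of paused against normal culture with its SE for the 10 genes, KO cells as circles above WT cells as squares; dashed lines separate serine synthesis, cytosolic and mitochondrial folate enzymes. The WT values of Phgdh, Psat1, Mthfd2 and Aldh1l2 lie between -1.77 and -2.72, well left of the KO values, while the values of Psph and Mthfd1l differ by 0.18 and 0.24 between genotypes.

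The response to pausing differed between genotypes for 7 of the 10 genes, and for up to 9 in other settings. The interaction term, the KO response minus the WT response, was positive for 5: Aldh1l2 (2.50 ± 0.36), Mthfd2 (1.87 ± 0.10), Psat1 (1.44 ± 0.21), Phgdh (1.25 ± 0.18) and Shmt2 (0.57 ± 0.09). It was negative for Shmt1 (-0.29 ± 0.06) and Mthfd1 (-0.26 ± 0.05), with adjusted p from 1.1e-09 for Mthfd2 to 0.0011 for Shmt1 over these 7 (edgeR). Over all genes tested 17.4% had a higher and 24.5% a lower interaction, and with upper-quartile factors the higher ones were 52.5% of those called in place of 41.6%. The 5 positive terms keep their sign and call with replicates 1 and 2 alone and with replicates 3 and 4 alone, for example 1.74 and 1.06 for Psat1. That of Mthfd1l, 0.24 ± 0.10, was not called (adjusted p = 0.077, unadjusted 95% interval 0.03 to 0.44). It was called with DESeq2 and with a CPM of at least 1 (adjusted p = 0.047 each), with upper-quartile factors (adjusted p = 0.03), without replicate 3 or 4 of WT normal cells (0.33 and 0.29) and with replicates 1 and 2 alone (0.52), while replicates 3 and 4 alone gave -0.05. That of Aldh1l1, 0.23 ± 0.13, was not called either (adjusted p = 0.16, unadjusted 95% interval -0.02 to 0.49), but was with replicates 3 and 4 alone (0.54).

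Between genotypes, the 3 serine genes and all 4 mitochondrial genes were higher in KO paused cells, and all of these but Mthfd2 also in KO normal cells. These contrasts share libraries with those of pausing, so they are set beside them and not used as a second line of evidence. In paused cells 8 of the 10 genes were higher in KO cells and 1, Shmt1, was lower, where 30.8% of all genes tested were higher and 34.5% lower. The differences were 5.80 ± 0.28 for Aldh1l2 (55.9-fold), 2.78 ± 0.13 for Phgdh (6.88-fold), 2.42 ± 0.15 for Psat1 (5.34-fold), 1.88 ± 0.07 for Mthfd2, 1.70 ± 0.07 for Shmt2, 1.20 ± 0.06 for Psph, 0.99 ± 0.07 for Mthfd1l and 0.62 ± 0.09 for Aldh1l1, with adjusted p of at most 7.5e-06 (edgeR). With length-scaled TPM counts the value of Aldh1l2 was 4.78, the lowest of its alternatives. In none of these 8 did the KO and WT libraries overlap, and neither did those of Mthfd1, which was not called in the main fit. How often libraries did not overlap over all genes tested was not counted. Shmt1 was lower in KO cells at -0.14 ± 0.04 (adjusted p = 0.0087) with overlapping libraries, and Mthfd1 was at 0.07 ± 0.04 (adjusted p = 0.11, unadjusted 95% interval -0.002 to 0.137). Mthfd1 was called higher with the 2-group fit (adjusted p = 0.031), length-scaled TPM counts (0.034), replicates 3 and 4 alone (0.019) and without replicate 2 or 3 of WT normal cells (0.025 and 0.028).

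In normal culture 9 of the 10 genes were higher in KO cells and none lower, where 34.1% of all genes were higher and 34.1% lower. Upper-quartile factors move the median of all genes in this contrast by -0.13 and the share of higher genes among those called to 38.2%, against 50% with TMM. Aldh1l2 was higher by 3.30 ± 0.24 (9.86-fold), Phgdh by 1.53 ± 0.13, Shmt2 by 1.14 ± 0.07, Psph by 1.01 ± 0.06, Psat1 by 0.98 ± 0.15 and Mthfd1l by 0.75 ± 0.07 (edgeR adjusted p of at most 3.2e-05). Aldh1l1, Mthfd1 and Shmt1 were higher by 0.39, 0.33 and 0.15, and the count of 9 fell to 8 or 7 in 3 other settings. Shmt1 lost its call with upper-quartile factors (0.01), a CPM of at least 1 (0.08) and replicates 3 and 4 alone (0.09), and Aldh1l1 with replicates 3 and 4 alone (0.21). Mthfd2 was the exception, at 0.01 ± 0.07 (adjusted p = 0.87, unadjusted 95% interval -0.12 to 0.15), and its sign turned with upper-quartile factors (-0.12), a CPM of at least 1 (-0.05), replicates 1 and 2 alone (-0.11) and without 1 of 3 libraries. The median over the 10 genes was 1.45 in paused cells and 0.87 in normal culture, beside -0.03 over all genes in both. With replicates 1 and 2 alone Psat1 differed by 0.69, Phgdh by 1.31, Psph by 0.93, Shmt2 by 1.05, Mthfd1l by 0.57 and Aldh1l2 by 2.95. With replicates 3 and 4 alone Psat1 differed by 1.35, Phgdh by 1.80, Psph by 1.10, Shmt2 by 1.22, Mthfd1l by 0.95 and Aldh1l2 by 3.85.

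**Figure D3:**
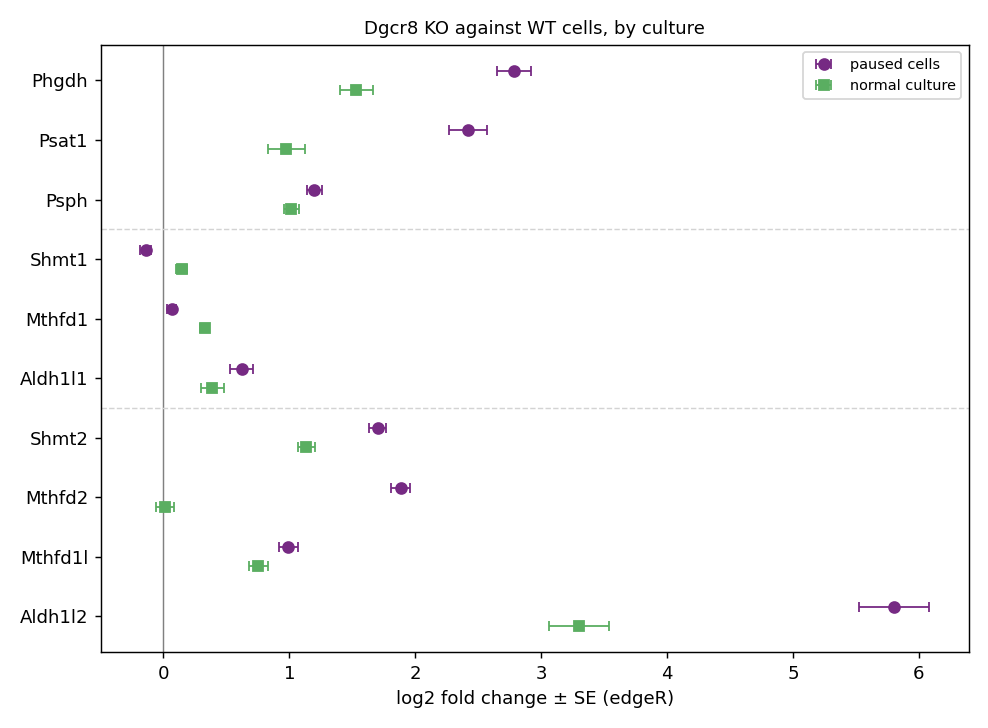
Log2 fold change of KO against WT cells with its SE, paused cells as circles above normal culture as squares, for the 10 genes in the same order. Aldh1l2 reaches 5.80 in paused cells, Mthfd2 is at 0.01 in normal culture and 1.88 in paused cells, and Shmt1 and Mthfd1 lie between -0.14 and 0.33.

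Compared per transcript length, in TPM, the serine and mitochondrial sums were lowest in WT paused cells, while the mitochondrial and cytosolic sums of KO paused and KO normal cells differed by less than their SD. The 3 serine genes summed to 681 ± 88.4 TPM in KO paused, 990.3 ± 75.3 in KO normal, 128 ± 1.38 in WT paused and 407 ± 103 in WT normal cells (SD, n = 4 each). The 4 mitochondrial genes summed to 674 ± 72.8 TPM in KO paused, 664 ± 54.1 in KO normal, 200.1 ± 3.93 in WT paused and 336 ± 40.7 in WT normal cells. The 3 cytosolic genes summed to 409 ± 6.58, 410.0 ± 19.9, 394 ± 3.33 and 323 ± 16.4 TPM in the same order of groups. The Shmt2 to Shmt1 ratio was 3.34 ± 0.466 in KO paused, 2.79 ± 0.182 in KO normal, 0.876 ± 0.0348 in WT paused and 1.40 ± 0.170 in WT normal cells. Summed over all transcripts, the WT paused group alone thus had more Shmt1 than Shmt2 in every library. The main coding transcripts stood in the other order there, at 78.2 TPM for Shmt1 and 105 TPM for Shmt2. The Mthfd2 to Mthfd1 ratio was 0.245 ± 0.0312 in KO paused, 0.391 ± 0.0165 in KO normal, 0.0720 ± 0.00203 in WT paused and 0.482 ± 0.0585 in WT normal cells, so in normal culture it was lower in KO than in WT cells, unlike the Shmt2 to Shmt1 ratio.

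By level in TPM, Shmt2 led in KO paused cells at 513 TPM, followed by Psat1 and Phgdh, which overlapped, and by Mthfd1 at 250.1. Psat1 led in KO normal cells at 480.0 TPM, with Shmt2 overlapping it at 469. In WT paused cells the order was Mthfd1 at 227, Shmt1 at 164 and Shmt2 at 144 TPM, none of which overlapped, and Psat1 came only at 54.3. Of the Shmt1 level there, 59.5 TPM came from retained-intron transcripts. The main coding transcript of Shmt2 stood above that of Shmt1, at 105 against 78.2 TPM. In WT normal cells Psat1, Shmt2 and Mthfd1 led at 226, 197 and 180.4 TPM, where each of the first 2 overlapped the next. Aldh1l1 or Aldh1l2 was last in every group.

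**Figure D4:**
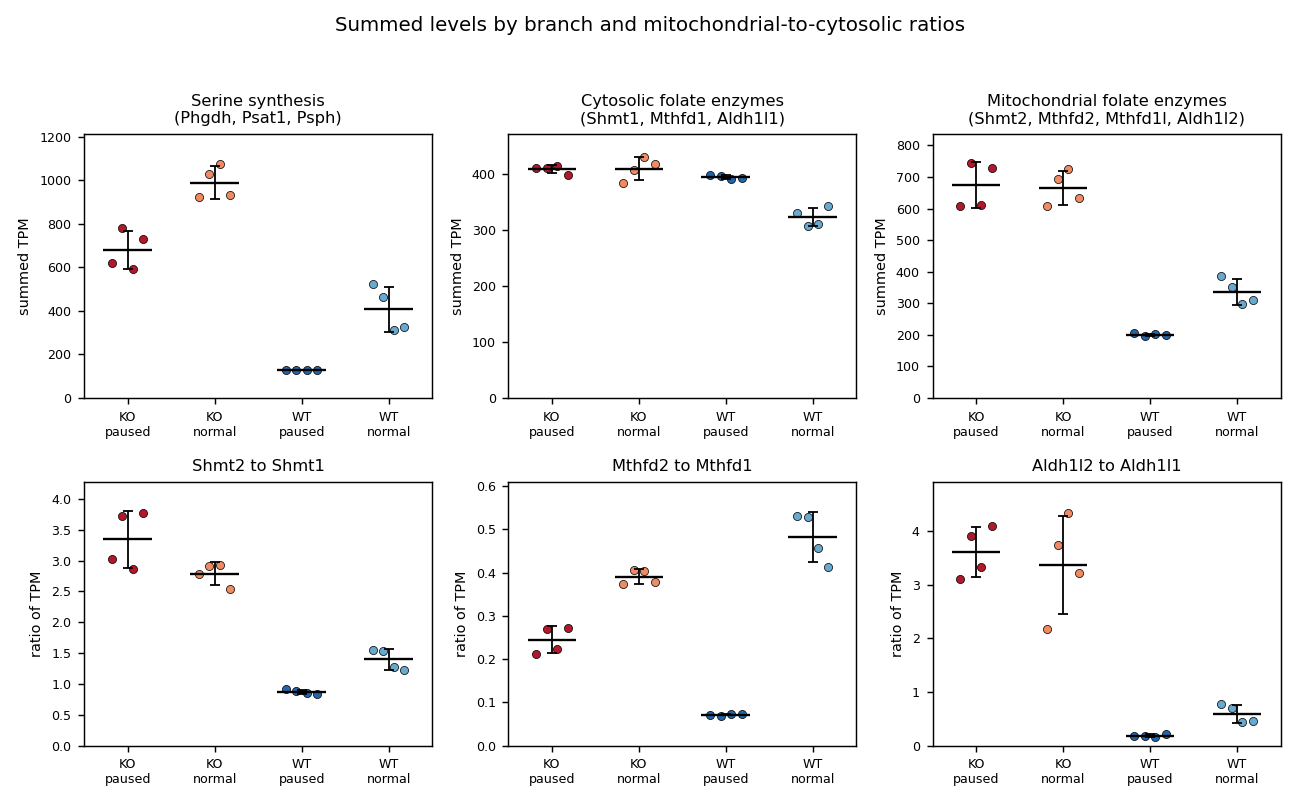
Upper row, summed TPM of the serine, cytosolic and mitochondrial genes; lower row, mitochondrial-to-cytosolic TPM ratios of 3 enzyme pairs; points are libraries and black bars the mean and SD of 4 (linear axes from 0). The serine and mitochondrial sums are lowest in WT paused cells, at 128 and 200.1 TPM, while the cytosolic sum varies between 323 and 410.0 TPM.

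Within groups the members also moved together across libraries. In WT normal cells replicates 1 and 2 had the higher values of Phgdh, Psat1, Psph, Shmt2, Mthfd2, Mthfd1l and Aldh1l2, while replicates 3 and 4 had the higher values of Shmt1 (219 and 231 against 202 and 204 CPM) and Mthfd1 (428 and 446 against 397 and 403 CPM). In KO paused cells replicates 2 and 4 had the higher values of the same 7 genes and replicates 1 and 3 those of Shmt1. The part of a library-wide difference in this was not tested.

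Copies of these genes in the genome limit Phgdh most. The tables hold 22 processed pseudogenes of Phgdh, 87.1% to 98.7% identical over their longest match, and 1 each of Psat1 (Gm12611), Shmt2 (Gm15544) and Mthfd1l (Gm9194). The pseudogenes of Phgdh took 0.995% to 1.16% of the counts of gene and copies in KO paused cells, 0.526% to 0.663% in KO normal, 7.81% to 9.24% in WT paused and 1.85% to 2.95% in WT normal cells. Most of it was Gm5320 on chromosome 7, whose counts ran from 170 to 471 a library. Gm5320 was lower in KO than WT cells, at -0.42 ± 0.10 in paused cells (edgeR adjusted p = 0.0017), the opposite direction to Phgdh. With all copies added to Phgdh, its pausing value in WT cells was -1.68 and its interaction 1.16.

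Genes around the pathway were counted from lists, and each count stands against the shares of all genes tested: on pausing 34.4% were higher and 32.7% lower in KO cells and 33.2% higher and 27.5% lower in WT cells, and against WT 30.8% were higher and 34.5% lower in KO paused cells and 34.1% each in KO normal cells. Counts near these shares are no result about a list. Of 13 other folate enzymes and carriers, 0 rose and 8 fell on pausing in each genotype, where 32.7% of all genes fell in KO cells and 27.5% in WT cells. Slc25a32, the mitochondrial folate carrier, fell, at -0.98 ± 0.06 in KO cells and -0.44 ± 0.06 in WT cells. Tyms, thymidylate synthase, fell too, at -0.55 in KO cells and -0.47 in WT cells. The list medians were -0.24 in KO cells and -0.36 in WT cells. Between genotypes 5 were higher and 6 lower in KO paused cells, and 4 were higher and 3 lower in KO normal cells, close to the shares over all genes.

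Of the 4 glycine cleavage genes, which break glycine down and charge folate in mitochondria, 1 rose and 3 fell on pausing in each genotype, beside 32.7% and 27.5% of all genes lower, with medians of -0.62 in KO cells and -0.37 in WT cells. Gldc, the decarboxylase, had a mean of 148 CPM in KO paused and 361 in KO normal cells, against 234 in WT paused and 278 in WT normal cells. Its interaction was -1.04 ± 0.12 (edgeR adjusted p = 3.9e-06), of opposite sign to those of Phgdh and Shmt2. Amt, the aminomethyltransferase, was the 1 that rose, by 0.27 and 0.35. Gart and Atic, the 2 purine synthesis enzymes that use formyl-folate, both fell in KO cells, at -0.58 and -0.73, and in WT cells, at -0.59 and -0.59.

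Of 11 tested genes of the methionine cycle and transsulfuration, 2 rose and 6 fell on pausing in KO cells, and 3 rose and 3 fell in WT cells, with medians of -0.21 and -0.12. The WT counts are close to the 33.2% of all genes higher and 27.5% lower, and in KO cells 34.4% were higher and 32.7% lower. Mat1a, a liver gene, was not tested. Cth, the cystathionine lyase that makes cysteine, was higher in KO cells by 1.40 ± 0.10 in paused and 1.24 ± 0.10 in normal culture. Cbs, which joins serine to homocysteine, fell, at -0.70 ± 0.06 in KO cells and rose by 0.37 ± 0.06 in WT cells. Of this list 2 genes were higher and 4 lower in KO paused cells, and 7 higher and 3 lower in KO normal cells.

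Of 11 serine and glycine carriers, 6 rose and 4 fell on pausing in KO cells, and 1 rose and 7 fell in WT cells, with medians of 0.22 and -0.32, where 34.4% of all genes were higher and 32.7% lower in KO cells and 33.2% higher and 27.5% lower in WT cells. Slc1a4, a carrier of small neutral amino acids, averaged 113 CPM in KO paused and 76.8 in KO normal cells, against 8.59 in WT paused and 22.9 in WT normal cells. Slc6a9, the glycine carrier, averaged 40.3 CPM in KO paused and 32.2 in KO normal cells, against 1.22 in WT paused and 6.38 in WT normal cells. Their interactions were 1.97 ± 0.12 and 2.72 ± 0.23 (edgeR adjusted p = 3.2e-09 and 2.1e-07). In the other direction, Slc38a5 had an interaction of -1.82 ± 0.26. Between genotypes 7 carriers were higher and 2 lower in KO paused cells, and 6 were higher and 0 lower in KO normal cells. Of 7 tested other users of serine, 1 rose and 4 fell in KO cells and 2 rose and 2 fell in WT cells, and 4 were higher in KO paused cells and 3 in KO normal cells, with none lower.

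The list of ATF4 and 18 other ATF4 targets, none of them a member, had the largest medians of these lists on pausing in WT cells and between genotypes. On pausing 3 rose and 6 fell in KO cells, while 0 rose and 16 fell in WT cells, with medians of -0.12 and -1.19. The 6 of 19 lower in KO cells are near the 32.7% of all genes, and in WT cells 27.5% of all genes were lower. In paused cells all 19 were higher in KO than WT cells (median 1.78), and in normal culture 15 were higher and 0 lower (median 1.21), beside 30.8% and 34.1% of all genes. The interaction was called higher for 17 of 19 and lower for 0, beside 17.4% of all genes higher, and was not called for Cebpg (0.23) and Slc7a11 (-0.09). Chac1, a glutathione-degrading enzyme, averaged 96.7 CPM in KO paused and 91.7 in KO normal cells, against 2.26 in WT paused and 15.7 in WT normal cells. The messenger of Atf4 itself averaged 218 CPM in KO paused, 242 in KO normal, 137 in WT paused and 237 in WT normal cells. Atf4 differed by 0.67 ± 0.09 between KO and WT paused cells (edgeR adjusted p = 5.9e-06) and by 0.03 ± 0.09 in normal culture (adjusted p = 0.76). ATF4 protein was not measured.

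**Figure D5:**
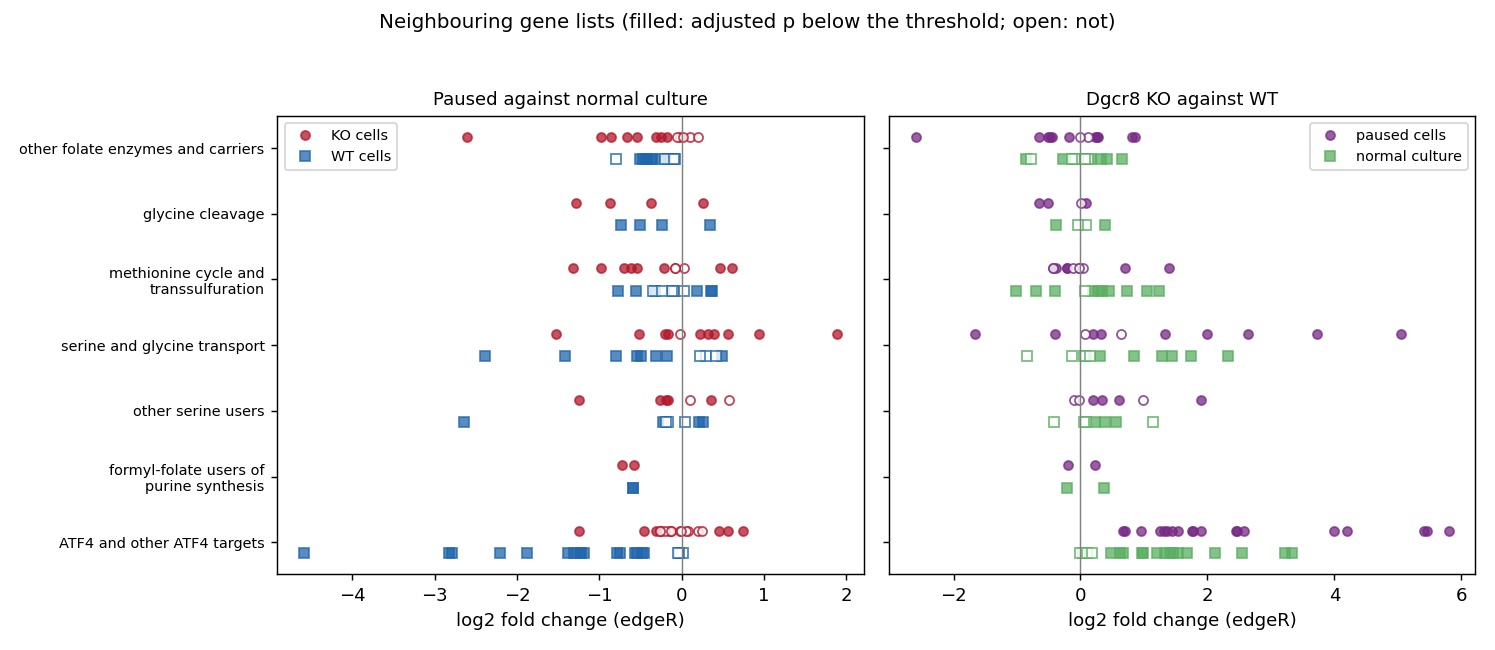
Log2 fold changes of the genes of 7 lists around the pathway, paused against normal culture at left (KO circles, WT squares) and KO against WT at right (paused circles, normal squares); filled symbols passed the adjusted p of 0.05. The ATF4 list lies mostly left of 0 in WT cells on pausing (16 of 19 lower) and right of 0 in KO against WT paused cells (19 of 19 higher). On pausing Gart and Atic lie left of 0 in both genotypes, and of the 13 other folate genes 0 were called higher and 8 lower in each. The remaining lists spread on both sides.

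The genes whose log2 CPM over the 16 libraries was most like that of Phgdh, among 9160 genes compared, were Gars, Nars, Mars, Eif4ebp1 and Trib3, with Pearson r of 0.993 to 0.999. Gars, Nars and Mars are transfer RNA synthetases, Eif4ebp1 is a translation repressor and mTOR substrate, and Trib3 is a pseudokinase. The nearest members were Mthfd1l at rank 19 (r = 0.985) and Shmt2 at rank 25 (r = 0.981). For Mthfd2 the nearest were Hspa9, Sucla2, Chordc1, Kif5b and Zfp280c (r of 0.976 to 0.992), and Hspa9, the mitochondrial chaperone, had a KO to WT difference of 0.47 ± 0.04 in paused cells and 0.00 ± 0.04 in normal culture. For Shmt1 they were Dcakd, Trim27, Ercc3, Nol12 and Ctps (r of 0.988 to 0.992). These r values are a description, since the 16 libraries fall into 4 groups of 4.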

How the data were processed

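The authors quantified poly(A) RNA with kallisto on GRCm38, per the submitters' processing notes, and deposited 1 table per library with transcript lengths, estimated counts and TPM, per the file headers. The kallisto version and use of strand are not given in the sources used here. Each library came from 800000 cells, per the labels' protocols. Of 118489 transcripts 116816 matched GENCODE M21, and the rest (0.643% to 0.697% of counts) were not used. For each gene the deposited estimated counts of its transcripts were added up and rounded. TPM, as deposited, was summed per gene and used for levels between genes.

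Genes were kept with filterByExpr (minimum count 10), which left 18965, and scaled by TMM (factors 0.933 to 1.07). Tests were robust edgeR 4.0.16 quasi-likelihood F tests in R 4.3.3 with 1 mean per group over all 16 libraries, two-sided, adjusted by Benjamini-Hochberg over all genes of a contrast, with a threshold of 0.05. "Rose", "fell", "higher" and "lower" as counts refer to it. The SE is the absolute log2 fold change over the square root of F, and intervals are unadjusted. The fit was also run on simulated data, with outcomes that are not reported here. Look-alike copies were found with BLAST 2.17.0 (identity of at least 85% over 200 bases).

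Members and lists were chosen with earlier results of these data known. Named genes are all members, Dgcr8, up to 3 genes with the largest called change per list and contrast, and the 5 genes most like Phgdh, Mthfd2 and Shmt1 (mean log2 CPM of at least 3). Other list genes, among them Atf4 and Tyms, were chosen after their values were seen, and some list genes are not reported here by name. Alternatives were other scalings (RLE, upper quartile), DESeq2 1.42.0, other filters, 2-group fits, length-scaled TPM counts, pseudogene counts added, a fit without robust estimation, a replicate block, replicates 1 and 2 or 3 and 4 only and each library left out.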

Additional observations from a re-analysis of the deposited data

Results flagged for a closer look

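The response to pausing differed between KO and WT cells for 7 of the 10 genes by the interaction test of edgeR. Beside this, 17.4% of all genes tested had a higher and 24.5% a lower interaction. The KO response minus the WT response on the log2 scale was as follows. Phgdh differed by 1.25, Psat1 by 1.44, Shmt2 by 0.57, Mthfd2 by 1.87 and Aldh1l2 by 2.50. Shmt1 differed by -0.29 and Mthfd1 by -0.26. Aldh1l2 is the member that rose in KO cells and fell in WT cells, and Mthfd1 the one that fell in KO cells and rose in WT cells, a WT rise that was lost in several settings. The other 5 fell in both genotypes by different amounts, but the calls of Shmt2 in KO cells and of Shmt1 in WT cells were lost in at least 1 other setting. Dixon's ratio flagged no single value in the 40 groups of 4 values tested. It cannot show a split such as that of WT normal replicates 1 and 2 from replicates 3 and 4.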

How the results depend on the processing

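Of 50 log2 fold changes (10 genes in 5 contrasts), 37 kept their direction and their side of the threshold under all 30 other settings. The pseudogene setting with all copies was chosen after seeing the data. The number of members higher on pausing in WT cells, 2, became 1 with RLE, upper-quartile factors, DESeq2, no filter or the 2-group fit and 0 with replicates 3 and 4 only, and ran from 0 to 2 when 1 library was left out. In KO cells it became 1 with replicates 1 and 2 only. Signs turned for Mthfd2 between KO and WT in normal culture (0.01), at -0.12 with upper-quartile factors, -0.05 with a CPM of at least 1, -0.11 with replicates 1 and 2, and -0.03 to 0.04 with 1 library left out. They also turned for the interactions of Aldh1l1 (-0.05, replicates 1 and 2) and Mthfd1l (-0.05, replicates 3 and 4), and for Mthfd1 on pausing in WT cells (-0.01, replicates 3 and 4). The cause was not tested. The correlations gave at most weak signs that replicate numbers pair the libraries. None of 24 pairs of deviations had a correlation above 0.1 (-0.048 to 0.097). Of the 24, 11 correlated best with their own number among the 4 of the other group. With the replicate block, all genes called on pausing were 12783 in KO cells and 11605 in WT cells, against 12731 and 11510, and the call of Shmt2 in KO cells was lost (adjusted p = 0.053), and no other call of the 10 genes changed. Aldh1l2 in WT paused cells rests on 66 to 92 counts a library, which limits its precision.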
